A study of Mus musculus with 4 samples.

Results

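The 40 genes described here are cell cycle and DNA replication genes, chosen by name from 27998 genes counted per cell in mouse alveolar type 2 cells, the surfactant-making cells of the lung air sacs. All 40 were found, each under 1 identifier, and all had at least 20 unique molecular identifiers (UMIs, each marking 1 captured RNA molecule) over the 4 libraries. They comprise 11 S-phase genes, 25 mitotic genes and 4 further members. The cells carried Sftpc-creER, in which the promoter of the surfactant gene Sftpc drives a tamoxifen-inducible Cre, and the Rosa26-mTmG reporter, which turns from red to green fluorescence after Cre acts. All groups, controls included, received 4 doses of tamoxifen, and treatment followed 14 days later. Cells that were green and lacked CD45 and CD31, surface proteins of leukocytes and endothelium, were sorted. The groups were PBS into the trachea of 3-month-old mice, PBS in 12-month-old mice, bleomycin (a DNA-breaking drug that injures the lung) at 0.8 U/kg in 3-month-old mice and the same dose in 12-month-old mice. PBS samples carry the label day 0 and bleomycin samples day 30, so drug and day cannot be told apart. Each group is 1 library from 3 pooled mice. With 1 library a group, differences cannot be set against replicates and none was tested. All intervals cover 95% of counting error and nothing else. Those of levels and ratios treat each UMI as independent, so they leave out the clumping of UMIs in few cells and are too narrow where it is strong.

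Cells that are about to divide first copy their DNA in S phase, using the Mcm helicase that unwinds it, the Pcna clamp that holds the polymerases, and the enzymes Rrm1, Rrm2, Tyms and Tk1 that make its building blocks. The mitotic genes act later: Cdk1 with its cyclins starts mitosis, the spindle and its kinesins separate the chromosomes, and the anaphase-promoting complex with Cdc20 and Ube2c ends it. In the adult lung most type 2 cells are at rest, and after injury some re-enter the cell cycle to renew the epithelium.

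Motifs in the promoters of the S-phase and mitotic sets differed in frequency. RefSeq promoter windows (build GRCm38.p6, 250 bases before to 50 after the start of each gene) were matched to 33 of the 40 members, in 34 windows; Mcm4, Ccna2, Tpx2, Aurkb, Kif20a, Hist1h2ap and Stmn1 had none. Motifs were searched on both strands, and matches of different kinds shared letters in 2 windows, those of Cdca8 and Mcm7. The first, CCAAT, is the binding motif of NF-Y. The second, TTTGAA, is the cell cycle genes homology region (CHR), known from promoters of mitotic genes. The third is an E2F motif of 8 letters, searched as TTTCCCGC, TTTGGCGC, TTTCGCGC and TTTGCCGC. TTTGAA stood in 15 of 21 mitotic windows (71.4%), in 1 of 11 S-phase windows (9.09%) and in 17.9% of all 32817 windows. An E2F motif stood in 4 of 11 S-phase windows (36.4%), in 1 of 21 mitotic windows (4.76%) and in 2.26% of all windows. CCAAT did not separate the sets, with 18 of 21 mitotic, 9 of 11 S-phase and 37.4% of all windows. A match is a description of letters, not of a bound site. The 5 stretches below end at the base before the start, run 5′ to 3′ on the strand of the gene and have the motif letters in capitals. Ube2c (chr2:164769779-164769928, plus strand), Cdc20 (chr4:118437344-118437493, minus strand) and Cdk1 (chr10:69352913-69353062, minus strand) are shown because the results on mitosis turn on them, and Cdk1 held both the CHR and an E2F motif. Mcm5 (chr8:75109349-75109508, plus strand) and Mcm6 (chr1:128359706-128359855, minus strand) are shown as S-phase genes with E2F motifs, and in each of them 1 run of capitals holds 2 matches, 1 on either strand, that share letters.
Ube2c: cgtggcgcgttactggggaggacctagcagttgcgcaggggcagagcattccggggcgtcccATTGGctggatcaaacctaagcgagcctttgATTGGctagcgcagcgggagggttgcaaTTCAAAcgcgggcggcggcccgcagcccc
Cdc20: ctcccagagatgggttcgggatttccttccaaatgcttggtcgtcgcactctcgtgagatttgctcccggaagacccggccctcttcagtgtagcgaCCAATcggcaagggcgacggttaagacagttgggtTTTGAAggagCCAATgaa
Cdk1: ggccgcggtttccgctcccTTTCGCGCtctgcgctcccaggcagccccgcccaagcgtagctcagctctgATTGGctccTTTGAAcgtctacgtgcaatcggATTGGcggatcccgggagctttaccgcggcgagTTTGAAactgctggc
Mcm5: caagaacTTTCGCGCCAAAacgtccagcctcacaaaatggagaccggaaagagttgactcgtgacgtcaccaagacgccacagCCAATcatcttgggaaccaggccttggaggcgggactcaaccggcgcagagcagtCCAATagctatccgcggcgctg
Mcm6: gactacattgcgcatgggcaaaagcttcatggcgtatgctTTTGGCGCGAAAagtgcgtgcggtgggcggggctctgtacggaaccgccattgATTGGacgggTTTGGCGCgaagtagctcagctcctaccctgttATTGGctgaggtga

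Barcodes with 500 genes or more, of whose UMIs 20% or less were mitochondrial, were kept: 2394 and 2745 from PBS at 3 and 12 months, and 2624 and 2993 from bleomycin at 3 and 12 months. Levels in the 4 libraries are given in that order throughout, in UMIs per 1000000 UMIs of all genes, written below as CPM. Total UMIs were 11298801, 14126266, 23318201 and 36910884, and median UMIs per cell were 4555, 5080, 8315.5 and 11760, so bleomycin libraries were deeper. Of 10687 cell barcodes, 67 occurred in more than 1 library. All 12 AT2 markers were detected in every library. Sftpc made up 5% or more of UMIs in 96.4%, 93.6%, 87.6% and 81.9% of cells, and 98, 52, 39 and 65 cells lay between 4% and 6%. Other cell types differed between libraries as well. A list of 26 genes that define leukocytes, endothelium, mesenchyme and ciliated cells summed to 29.3, 84.7, 191 and 559 CPM, with 10 of them at 0 in 3-month PBS, and to 6.70, 19.8, 27.6 and 85.8 in Sftpc-high cells. Their part in the results was not tested beyond the values given beside each result. Summed UMIs cannot tell fewer cells with a gene from less RNA per cell, so counts of cells follow the levels. Each bleomycin library is compared with the PBS library of its age and each age with the other under the same treatment, so the 4 comparisons share libraries.

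Mitotic genes were far higher after bleomycin in 12-month mice and somewhat lower after it in 3-month mice. The 25 mitotic genes summed to 114, 29.3, 84.3 and 233 CPM in all cells. The 12-month libraries held the extremes, with PBS lowest and bleomycin highest. The 1% of cells with the most mitotic UMIs held 75.5%, 43.2%, 60.4% and 47.6% of them, a clumping that the intervals below leave out. At 12 months the bleomycin to PBS ratio was 7.95 (7.20 to 8.79), and in cells with Sftpc at 5% or more it was 9.86 (8.76 to 11.1). At 3 months the ratio was 0.740 (0.689 to 0.794) in all cells and 0.802 (0.743 to 0.867) in Sftpc-high cells. With Sftpc at 10% or more it came to -0.068 on the log2 scale, against -0.44 in all cells. Between PBS libraries, 12 months was 3.89-fold lower than 3 months (3.48 to 4.36), and 4.68-fold lower (4.11 to 5.36) in Sftpc-high cells. With bleomycin, 12 months was 2.76-fold higher (2.63 to 2.90), and 2.63-fold higher (2.49 to 2.77) in Sftpc-high cells.

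S-phase genes moved less. The 11 genes summed to 99.6, 81.3, 118 and 155 CPM in all cells and to 96.6, 76.1, 115 and 142 in Sftpc-high cells. The order of the libraries was the same in both, with 12-month PBS lowest and 12-month bleomycin highest. The bleomycin to PBS ratio was 1.91 (1.79 to 2.04) at 12 months and 1.19 (1.11 to 1.27) at 3 months. The 12 to 3 month ratio was 0.816 (0.751 to 0.887) with PBS and 1.32 (1.26 to 1.38) with bleomycin.

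Gene by gene, 33 of the 40 members were at least 2-fold higher with bleomycin at 12 months, where 17.5% of the 14350 genes with 20 or more UMIs were. They comprised 23 of 25 mitotic, 7 of 11 S-phase and 3 of 4 other members. None was 2-fold lower, against 5.74% of genes. The median log2 ratio was 3.47 for mitotic and 1.46 for S-phase members, beside 0.16 for all genes. At 3 months 2 members were 2-fold higher, Mcm3 and 2810417H13Rik, against 17.9% of genes. The 5 that were 2-fold lower were all mitotic (Ube2c, Nusap1, Aurkb, Bub1 and Cenpe), against 4.46% of genes. The 3-month counts are small and depended on the cells. With cells of other types left out they were 1 and 8, and with Sftpc at 10% or more they were 5 and 2. The shares of all genes in those cells are not given here. Median log2 ratios at 3 months were -0.42 for mitotic and 0.57 for S-phase members, beside 0.15 for all genes. Between the PBS libraries 23 members were 2-fold lower at 12 months, against 4.63% of genes, and 22 of these were mitotic. None was 2-fold higher, against 11.2%. With bleomycin 24 members were 2-fold higher at 12 months, 20 of them mitotic, against 8.47% of genes, and none was 2-fold lower, against 3.68%. In Sftpc-high cells the member counts were 33 higher at 12 months (14.5% of 13236 genes), 3 higher and 4 lower at 3 months (11.3% and 5.39%), none lower at 12 months (6.14%), 26 lower and none higher at 12 months between PBS libraries (5.41% and 6.77%), and 24 higher and none lower between bleomycin libraries (6.66% and 2.47%).

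**Figure D1:**
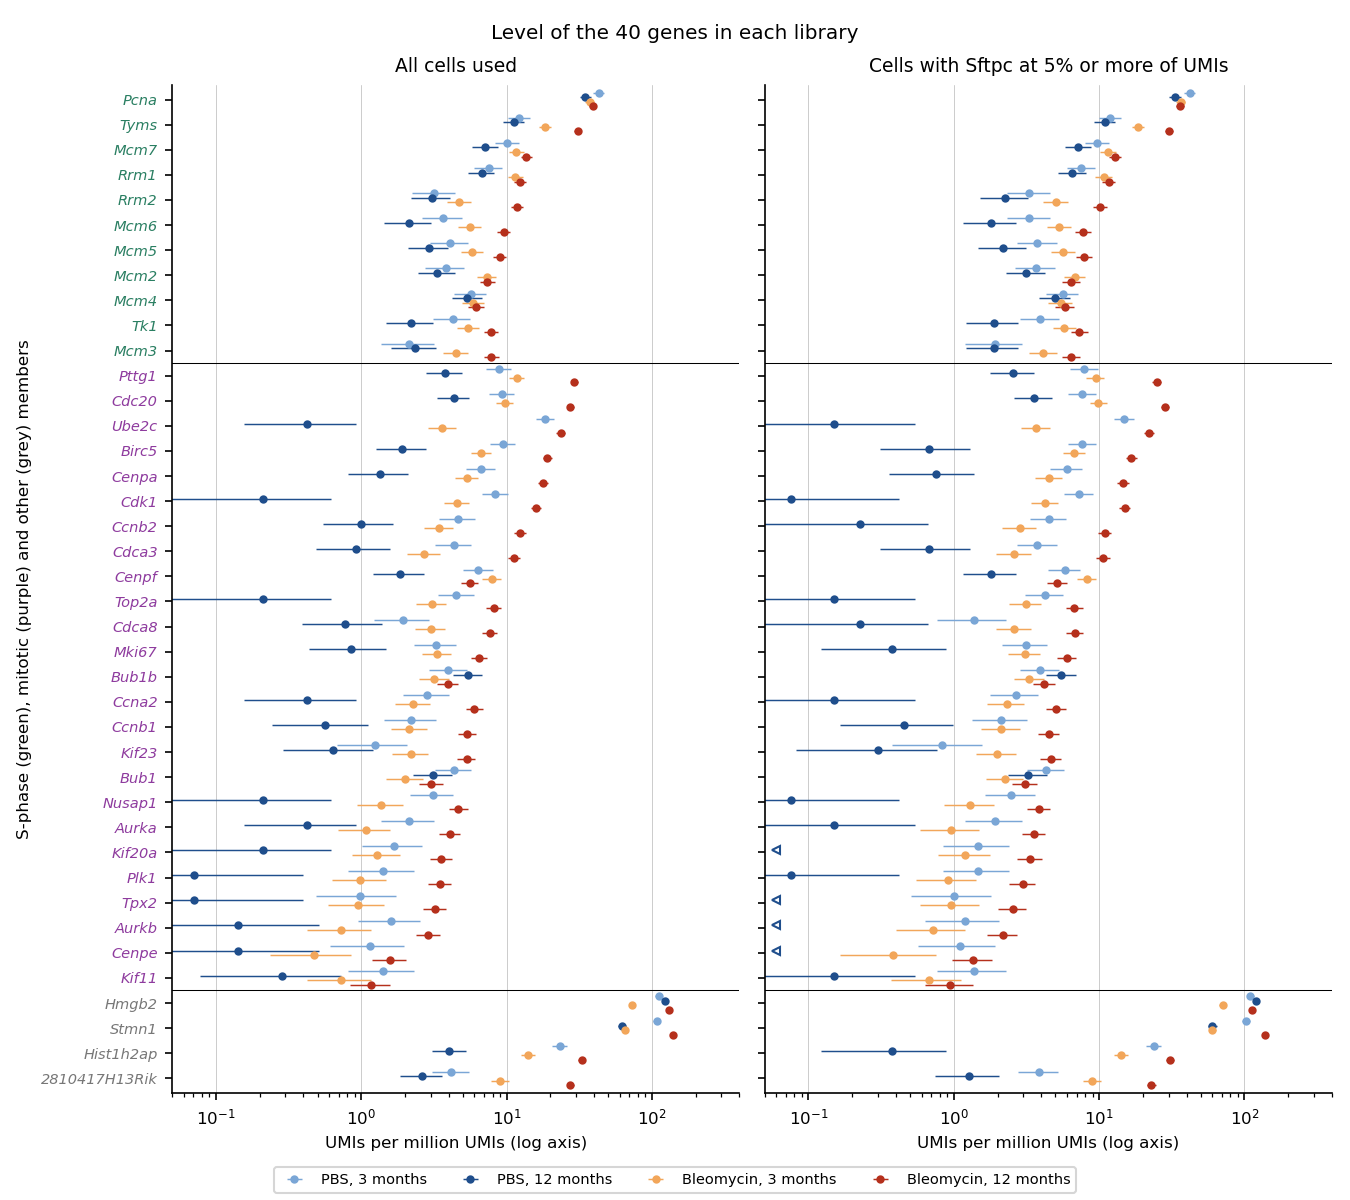
Level of each of the 40 genes in CPM (log axis) in each library, in all cells (left) and in cells with Sftpc at 5% or more of UMIs (right). Points are single libraries, and open triangles mark genes with 0 UMIs. Bars are 95% Poisson intervals for counting error that may run past the left edge. In all cells the level was lowest in 12-month PBS for 36 genes and highest in 12-month bleomycin for 35. The shares of all genes with these extremes are not given here.

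Among the mitotic genes, the regulators of the anaphase-promoting complex and its targets had the most UMIs. Ube2c (chr2:164769898-164778822), the ubiquitin-conjugating enzyme of the complex, was at 18.4, 0.425, 3.60 and 23.5 CPM. It was high in 3-month PBS and 12-month bleomycin and nearly absent in 12-month PBS, where 6 UMIs were counted. Bleomycin was 5.11-fold lower than PBS at 3 months (3.95 to 6.67) and 55.4-fold higher at 12 months (25.4 to 151). Of the 208 Ube2c UMIs in 3-month PBS, 179 lay in cells with at least 4 other mitotic members. Only 17 such cells held Ube2c there and 13 in 3-month bleomycin, so the 3-month ratio rests on few cells. Cdc20 (chr4:118432901-118437352), the activator of the complex, was at 9.29, 4.32, 9.69 and 27.5. Its 3-month libraries differed by less than counting error, at a ratio of 1.04 (0.824 to 1.33), while the 12-month ratio was 6.37 (4.92 to 8.39). Pttg1 (chr11:43420250-43426251) encodes securin, which the complex destroys to let sister chromatids part. It was at 8.85, 3.75, 11.7 and 29.3, with ratios of 1.32 (1.05 to 1.68) at 3 months and 7.80 (5.92 to 10.5) at 12 months. In both these genes the 12-month bleomycin library stood above the other three.

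Cdk1 (chr10:69335146-69352938), the kinase that drives entry into mitosis, was at 8.32, 0.212, 4.55 and 16.0 CPM, and only 3 UMIs were counted in 12-month PBS. The 12-month ratio of 75.1 had a wide interval (25.6 to 365) for that reason, and at 3 months bleomycin was 1.83-fold lower (1.37 to 2.44). Ccnb2 (chr9:70407692-70421547), a B-type cyclin that activates Cdk1, was at 4.60, 0.991, 3.43 and 12.4. It was 12.5-fold higher with bleomycin at 12 months (7.39 to 23.1), and its 3-month interval of 0.519 to 1.08 held 1. Cdca3 (chr6:124829547-124833701), a trigger of mitotic entry, was at 4.34, 0.920, 2.70 and 11.2, with ratios of 0.623 (0.422 to 0.924) at 3 months and 12.2 (7.07 to 23.1) at 12 months. All 3 genes kept the order 12-month PBS, 3-month bleomycin, 3-month PBS, 12-month bleomycin from low to high.

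The same order held for a kinetochore gene and a chromosome passenger gene. Birc5 (chr11:117849251-117855743) encodes survivin of the chromosomal passenger complex and was at 9.38, 1.91, 6.69 and 19.0 CPM. Its ratios were 0.713 (0.554 to 0.921) at 3 months and 9.96 (6.79 to 15.2) at 12 months. Cenpa (chr5:30666777-30674830), the histone H3 variant that marks centromeres, was at 6.64, 1.35, 5.32 and 17.8. Its ratios were 0.801 (0.597 to 1.08) and 13.3 (8.42 to 22.2), so that only the 12-month difference exceeded counting error. In Sftpc-high cells the 12-month ratios were 24.6 for Birc5 (12.9 to 54.1) and 19.4 for Cenpa (10.4 to 40.6).

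The other 17 mitotic members held from 80 UMIs (Kif11) to 488 (Cenpf) over the 4 libraries. They comprise cyclins (Ccna2, Ccnb1), kinases (Plk1, Aurka, Aurkb, Bub1, Bub1b), kinesins (Kif11, Kif20a, Kif23, Cenpe), spindle and chromosome proteins (Tpx2, Nusap1, Cdca8, Cenpf, Top2a) and Mki67, which coats mitotic chromosomes. At 12 months 15 of them were at least 2-fold higher with bleomycin. Top2a, the topoisomerase that untangles replicated DNA, was 38.3-fold higher (12.97 to 187) on 3 PBS UMIs, and Mki67 was 7.65-fold higher (4.30 to 15.02). Plk1, a kinase of many mitotic steps, had 1 UMI in 12-month PBS and a ratio of 49.0 (8.64 to 1950). In Sftpc-high cells 4 genes had 0 UMIs in 12-month PBS, and 3 UMIs (0.226 CPM) were set in place of 0. With that floor Kif20a was 14.7-fold, Tpx2 11.3-fold, Aurkb 9.60-fold and Cenpe 5.98-fold higher with bleomycin. These values leave out counting error in bleomycin and are not limits of an interval, whose lower limit for Tpx2 was 8.96. At 3 months the ratios of the 17 ran from 0.410 (0.166 to 0.992) for Cenpe to 1.77 (0.962 to 3.45) for Kif23.

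Bub1 and Bub1b, kinase and pseudokinase of the spindle checkpoint, did not follow the other mitotic genes. Bub1 was at 4.34, 3.11, 2.02 and 3.03 CPM, and its 12-month ratio of 0.974 (0.682 to 1.41) lay within counting error. Bub1b was at 3.98, 5.45, 3.17 and 3.96, and here bleomycin was 1.38-fold lower at 12 months (1.03 to 1.83). These 2 were the only mitotic members lower with bleomycin at both ages in all cells. Cenpf, a large kinetochore protein, was at 6.37, 1.84, 7.89 and 5.58. Among the mitotic members it was the only one higher with bleomycin at 3 than at 12 months, by 1.41-fold (1.15 to 1.73), and by 1.60-fold (1.29 to 2.00) in Sftpc-high cells. Of the 184 Cenpf UMIs in 3-month bleomycin, only 31 lay in cells with at least 4 other mitotic members. The numbers were 120 of 206 in 12-month bleomycin and 33 of 72 in 3-month PBS.

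Of the S-phase genes, Pcna and Tyms were the most abundant. Pcna (chr2:132249162-132253314), the sliding clamp, was at 43.0, 34.9, 37.3 and 39.0 CPM, a narrow range in which the 4 libraries barely separate. Its bleomycin to PBS ratio was 0.867 (0.775 to 0.971) at 3 months and 1.12 (1.01 to 1.24) at 12 months, and in Sftpc-high cells the latter interval (0.968 to 1.21) held 1. Tyms (chr5:30058202-30073617), thymidylate synthase, which like Stmn1 has pseudogene copies that could share reads, was at 12.2, 11.2, 18.4 and 30.8. Both bleomycin libraries stood above both PBS libraries, with ratios of 1.503 (1.24 to 1.83) at 3 months and 2.75 (2.33 to 3.27) at 12 months.

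The ribonucleotide reductase subunits differed from each other. Rrm1 (chr7:102441695-102469771), the large subunit, was at 7.52, 6.73, 11.5 and 12.4 CPM. Rrm2 (chr12:24708241-24714146), the small subunit made mainly in S phase, was at 3.19, 3.04, 4.72 and 11.8. Rrm1 was thus close between the 2 bleomycin libraries, at a 12 to 3 month ratio of 1.08 (0.924 to 1.26), while Rrm2 was 2.50-fold higher at 12 months (2.02 to 3.11). Rrm2 was the only S-phase member past 2-fold in that comparison. Tk1, which salvages thymidine, was at 4.25, 2.19, 5.45 and 7.83, and its 12-month bleomycin to PBS ratio was 3.57 (2.46 to 5.35).

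The Mcm helicase genes did not all behave alike. Mcm7 (chr5:138164583-138172422) was at 10.1, 7.15, 11.7 and 13.7 CPM, with ratios of 1.16 (0.926 to 1.45) at 3 months and 1.91 (1.54 to 2.39) at 12 months. Mcm6 (chr1:128331590-128359664) was at 3.63, 2.12, 5.58 and 9.54, with ratios of 1.54 (1.07 to 2.24) and 4.49 (3.09 to 6.76). Mcm6 had the highest 12-month ratio of the 11 S-phase members in all cells, while in Sftpc-high cells Rrm2 stood at 4.48 and Mcm6 at 4.28. Mcm2, Mcm3 and Mcm5 had 12-month ratios of 2.21, 3.36 and 3.08, whereas Mcm4 stayed at 5.66, 5.38, 5.88 and 6.18 and all 4 of its intervals held 1. Mcm3 was the only S-phase member past 2-fold at 3 months, at 2.10 (1.34 to 3.42).

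The 4 further members are a histone, a Pcna partner, a tubulin regulator and a chromatin protein. Hist1h2ap (chr13:21833026-21833507), a replication-dependent histone H2A, was at 23.2, 4.04, 14.0 and 32.9 CPM. Other H2A genes have near-identical copies of its sequence, so its counts are uncertain. Of its 57 UMIs in 12-month PBS 47 lay in 1 cell, so the level and the 12-month ratio in all cells rest on that cell, and 5 lay in Sftpc-high cells. The 12-month ratio was 8.16 (6.26 to 10.8) in all cells and 81.5 (34.8 to 252) in Sftpc-high cells. 2810417H13Rik (chr9:65890237-65903266), also named Pclaf, binds Pcna during replication and was at 4.16, 2.62, 9.01 and 27.5. It was 2.17-fold higher with bleomycin at 3 months (1.57 to 3.04) and 10.5-fold at 12 months (7.56 to 14.998), so unlike Hist1h2ap it was higher at both ages.

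Stmn1 (chr4:134468320-134473843), which destabilises microtubules, was at 108, 62.2, 65.2 and 140.1 CPM. It was 1.65-fold lower with bleomycin at 3 months (1.53 to 1.78) and 2.25-fold higher at 12 months (2.10 to 2.42). Hmgb2 (chr8:57511907-57515999), a DNA-bending protein abundant in dividing cells, was at 111, 123, 72.7 and 130.0, lowest in 3-month bleomycin and otherwise close. Its 3-month ratio was 0.655 (0.609 to 0.706), and its 12-month ratio of 1.06 in all cells became 0.940 (0.885 to 0.997) in Sftpc-high cells.

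Set side by side, 21 members were lower with bleomycin at 3 months and higher at 12 months, 17 of them mitotic. Another 17 were higher at both ages, 10 of them S-phase, and the 2 that were lower at both were Bub1 and Bub1b. These counts include differences within counting error. The shares of all genes with the same patterns are not given here, and the comparisons share libraries. The counts are therefore a description of the members and not a result particular to them.

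**Figure D2:**
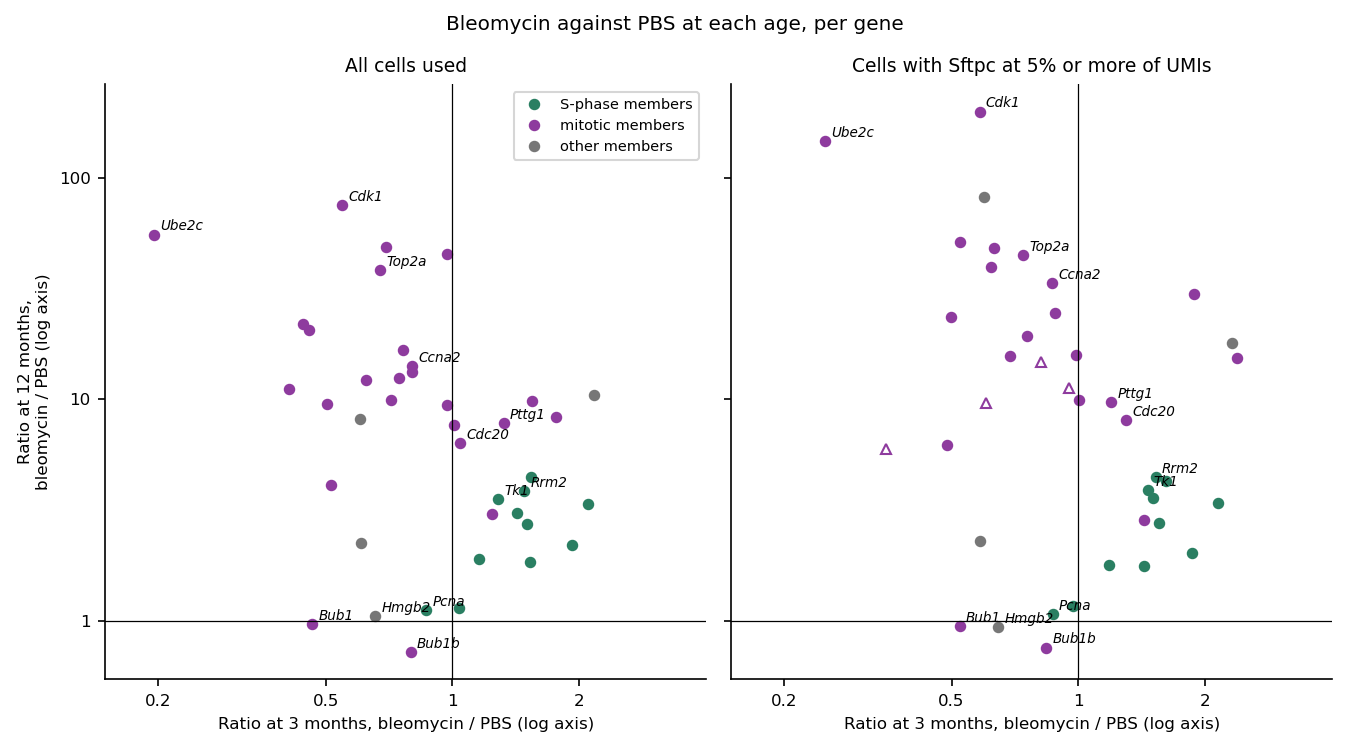
Ratio of bleomycin to PBS at 3 months (horizontal) and at 12 months (vertical), both on log axes, for each gene in all cells (left) and in cells with Sftpc at 5% or more of UMIs (right). Each point is 1 gene from 1 library per group. Open triangles are genes with 0 UMIs in 12-month PBS, placed with 3 UMIs in place of 0. In each panel 21 genes lie at the upper left, below 1 at 3 months and above 1 at 12 months. The share of all genes that would lie there is not given here.

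To count cells rather than molecules, a cell was taken as mitotic-gene positive when it held UMIs of at least 4 different mitotic members. There were 22 such cells in 3-month PBS (0.919%, exact binomial interval 0.577 to 1.39), 4 in 12-month PBS (0.146%, 0.0397 to 0.373), 29 in 3-month bleomycin (1.11%, 0.741 to 1.58) and 185 in 12-month bleomycin (6.18%, 5.34 to 7.10). The 3-month intervals overlap, and the 12-month bleomycin interval lies above the other three. A further 2, 0, 11 and 83 cells held exactly 3. Depth differed between the libraries, so each cell was thinned to 3000 UMIs, which left out 391, 321, 114 and 0 shallower cells. The shares were then 0.899%, 0.124%, 0.637% and 2.77%. The 12-month bleomycin library remained highest and 12-month PBS lowest, while the share in 3-month bleomycin moved from above to below that in 3-month PBS, with overlapping intervals in both cases. Among Sftpc-high cells 18, 2, 23 and 134 cells were positive as deposited (0.780% of 2308, 0.0778% of 2570, 23 of 2299 and 5.47% of 2450). After thinning to 3000 UMIs their shares were 0.820%, 0.0430%, 0.624% and 2.29%. Here too 3-month bleomycin moved from above to below 3-month PBS, with overlapping intervals in both cases.

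**Figure D3:**
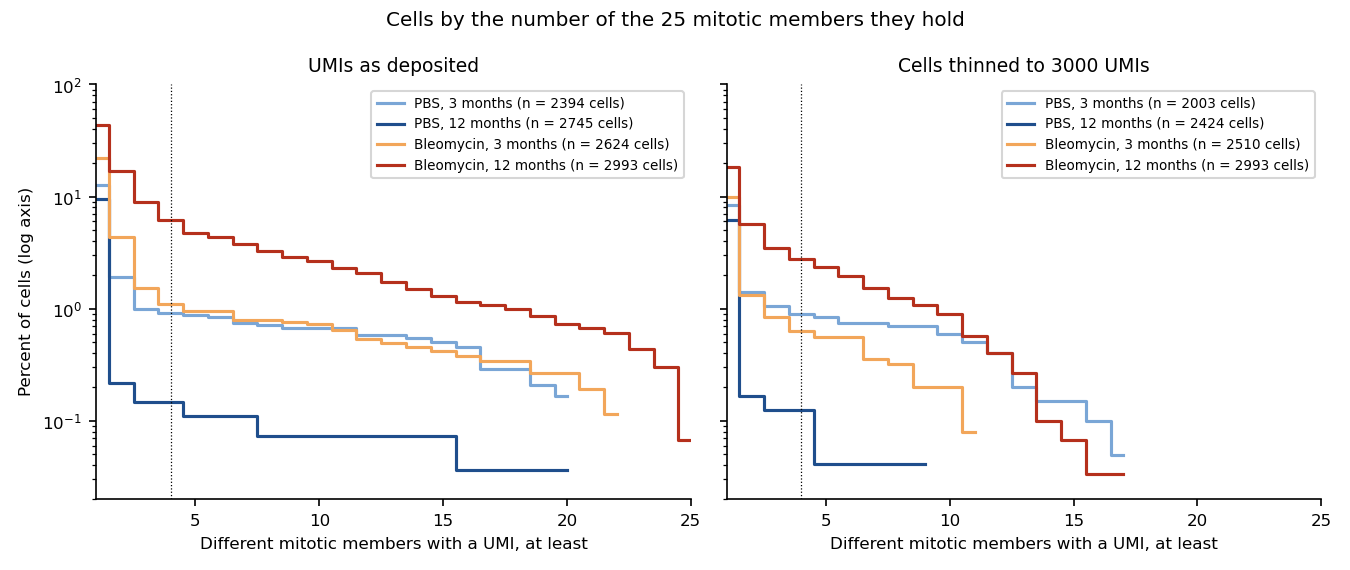
Percent of cells (log axis) that hold UMIs of at least the given number of different mitotic members, in each library, with UMIs as deposited (left) and after thinning each cell to 3000 UMIs (right). The dotted line marks 4 members, at which 12-month bleomycin stands at 6.18% and 2.77% and 12-month PBS at 0.146% and 0.124%.

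As a background, cells with at least 10 UMIs of 6 core ciliated genes and Sftpc below 5% were taken, since ciliated cells do not divide. There were 123 of them, with a median of 6974 UMIs, and 4 (3.25%, 0.893 to 8.12) held at least 4 mitotic members: 2 of 47 in 3-month bleomycin and 2 of 41 in 12-month bleomycin, with 0 of 7 and 0 of 28 in PBS. This interval rests on 4 cells and is wide. It holds the shares of 3-month PBS and of both bleomycin libraries, while that of 12-month PBS lies below it. Pooled over libraries and on so few cells, it cannot show whether the 3 shares inside it differ from the background. What the 4 cells are was not tested. The numbers of mitotic UMIs behind these calls follow as a description, since cells were chosen for holding such UMIs. The 4 ciliated-gene cells held 14 to 92 mitotic UMIs, whereas the median ciliated-gene cell held 0 in PBS and 1 in bleomycin libraries. Positive Sftpc-high cells held 43.1 mitotic UMIs on average in 3-month PBS, 43.5 in 3-month bleomycin and 40.3 in 12-month bleomycin, and 13 in the 2 cells of 12-month PBS. The other Sftpc-high cells held 0.136, 0.100, 0.293 and 0.560 on average in the 4 libraries. In 12-month bleomycin the numbers of cells with 1, 2, 3, 4 and 5 mitotic members were 785, 242, 83, 44 and 11, so no gap marks the threshold of 4.

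S-phase genes were counted in cells in the same way. At least 4 of the 11 were present in 13, 3, 55 and 180 cells (0.543%, 0.109%, 2.10% and 6.01%), and after thinning in 0.349%, 0.0413%, 0.558% and 1.44%. Cells with at least 4 members of both sets numbered 7, 1, 19 and 99. With bleomycin the mitotic-positive cells that were also S-phase positive were 19 of 29 at 3 months and 99 of 185 at 12 months, against 7 of 22 in 3-month PBS. Thinned cells gave smaller numbers, 3 of 18, 1 of 3, 4 of 16 and 17 of 83, so the difference between those shares moved with depth.

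**Figure D4:**
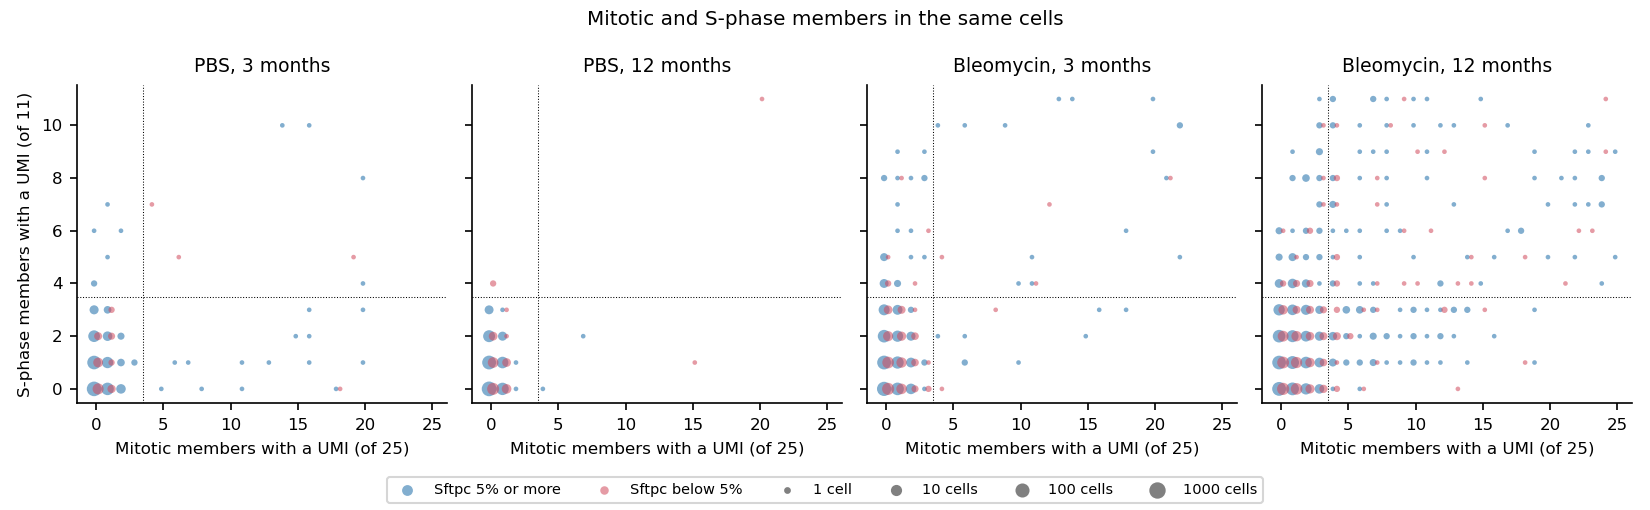
Number of different S-phase members (vertical) against number of different mitotic members (horizontal) in each cell, 1 panel per library, UMIs as deposited. Point size gives the number of cells, colour whether Sftpc made up 5% or more of UMIs, and dotted lines separate cells with at least 4; the upper right corner holds 7, 1, 19 and 99 cells.

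The members differed in how much of their RNA lay in cells that held other mitotic members. Cells with at least 4 mitotic members other than the gene itself were taken over the 4 libraries, which for S-phase and further members were 2.23% of cells with 4.66% of all UMIs. At least 50% of UMIs came from such cells for 22 of 25 mitotic members, 2 of 11 S-phase members and 2 of 4 others. Among mitotic members the share was highest for Ube2c at 88.8% (86.8 to 90.5), with a median of 80.3%. Bub1b at 21.6% (17.4 to 26.4), Bub1 at 33.7% (27.9 to 39.9) and Cenpf at 37.9% (33.6 to 42.4) were the 3 below 50%. Their levels also departed from the rest, but the 2 observations are not independent. Most such cells (185 of 240 for S-phase and further members) were in 12-month bleomycin, so a gene not raised there has a lower pooled share. Within 12-month bleomycin the shares were 34.9% for Bub1b, 57.1% for Bub1 and 58.3% for Cenpf. In 12-month PBS, with only 4 such cells, 2.60% of Bub1b UMIs and 0 of 44 Bub1 UMIs came from them.

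Most S-phase genes had smaller shares in cells with at least 4 mitotic members. The cells were chosen by mitotic members, so a low share does not show that a gene is spread over many cells. Of the S-phase-positive cells, 36 of 55 in 3-month bleomycin and 81 of 180 in 12-month bleomycin were not mitotic-gene positive. Pcna had 16.0% of its UMIs (14.8 to 17.3) in cells with at least 4 mitotic members and Mcm4 18.0% (14.8 to 21.7). These were the 2 S-phase genes whose levels differed least between libraries, and the pooled share depends on those levels. Within 12-month bleomycin the shares were 25.7% for Pcna and 29.4% for Mcm4. Rrm2 at 72.3% (68.6 to 75.8) and Tk1 at 56.8% (52.3 to 61.2) were the 2 above 50%. Mcm5 and Mcm6, whose promoters are shown above, had 41.7% and 40.9%. Of the further members, 2810417H13Rik (81.3%) and Hist1h2ap (80.5%) lay near the mitotic median, while Stmn1 (40.5%) and Hmgb2 (23.7%) were not. Hmgb2 was present in 21 of 22, 4 of 4, 26 of 29 and 170 of 185 positive cells, so it was common there without being confined to them.

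**Figure D5:**
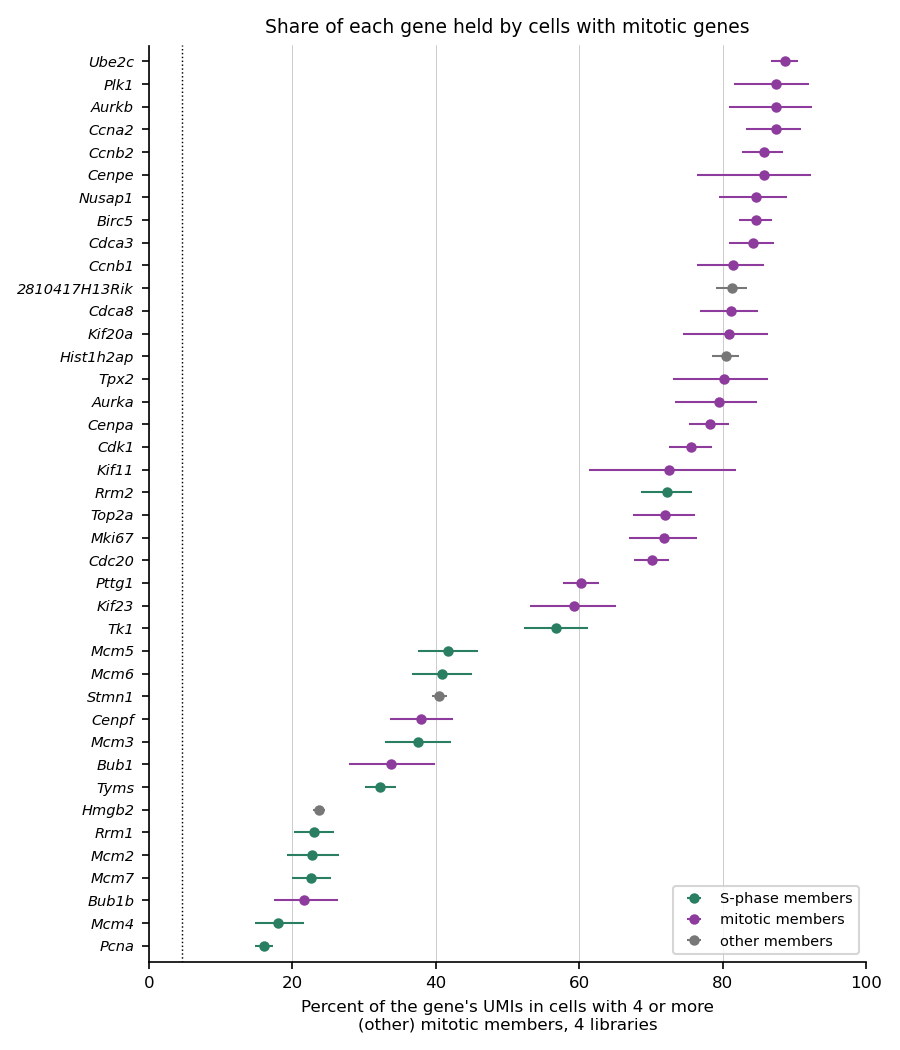
Percent of each gene's UMIs, over the 4 libraries and all cells, that lie in cells with at least 4 mitotic members other than the gene itself. Bars are exact 95% binomial intervals for counting error and the dotted line marks the 4.66% of all UMIs in those cells; Ube2c is highest at 88.8% and Pcna lowest at 16.0%.

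Each set was also summed without the cells positive for the other set. For the S-phase sum this takes out 22, 4, 29 and 185 mitotic-positive cells. For the mitotic sum it takes out 13, 3, 55 and 180 S-phase-positive cells. Most are from the deepest library, so a smaller ratio in part follows from the choice of cells and is given as a description. Without cells that held 4 or more mitotic members, the S-phase sum was 77.4 CPM in 12-month PBS and 100.05 in 12-month bleomycin. The bleomycin to PBS ratio there was 1.29 (1.21 to 1.38), against 1.91 with all cells, and 2 of 11 genes were past 2-fold in place of 7. The 12 to 3 month ratio with bleomycin became 1.04, with an interval (0.982 to 1.09) that held 1. The mitotic sum, taken without cells that held 4 or more S-phase members, had a 12-month ratio of 3.88 (3.48 to 4.34), against 7.95 with all cells, with 21 of 25 genes past 2-fold in place of 23. Its 3-month ratio was 0.594 (0.544 to 0.650), against 0.740. The share of all genes past 2-fold without these cells is not given here. The counts of 2 of 11 and 21 of 25 genes therefore cannot show whether the members exceed it.

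Positive cells were also compared with other Sftpc-high cells in the same library. In 12-month bleomycin the 134 positive Sftpc-high cells had a median of 18032 UMIs, against 12339.5 in the 2316 others, and in 3-month PBS 7686 against 4558.5. After thinning to 3000 UMIs, 12 AT2 markers together had a median of 547.5 UMIs in positive and 843 in other cells of 12-month bleomycin, and of 590 against 825 in 3-month bleomycin. In 3-month PBS the medians were 460.5 and 659.5. Positive cells thus held fewer AT2 marker UMIs at equal depth in these 3 libraries, and 12-month PBS had only 2 such cells. Of 10 transitional alveolar markers, genes raised in cells between the type 2 and type 1 states, the thinned median was 7.5 against 4 UMIs in 12-month bleomycin, 6 against 3 in 3-month bleomycin and 4 against 2 in 3-month PBS. AT1 markers were close, at 7 against 8, 8 against 8 and 7.5 against 7.

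Markers of other cell types were present in part of the positive cells. At least 2 UMIs of the 26 defining genes were found in 0 of 22, 2 of 4, 6 of 29 and 82 of 185 positive cells. In 12-month bleomycin 41 positive cells held 2 or more UMIs of 7 macrophage genes and 21 of 5 T cell genes. In 12-month PBS the 2 positive cells with Sftpc below 5% both held T cell genes and had 52.5 mitotic UMIs on average, and the 4 positive cells of that library held 31.6% of its 414 mitotic UMIs. Among Sftpc-high cells of 12-month bleomycin, 31.3% of positive and 19.2% of other cells held 2 or more UMIs of the 26 genes, at the depths given above. With all cells that held them left out, the log2 ratio of the mitotic sum at 12 months was 3.11, and 3.07 in the Sftpc-high cells among the rest, against 2.99 in all cells. The share of positive cells in 12-month bleomycin was then 4.88% and 4.68%. A doublet caller had marked 0, 0, 1 and 5 of the positive cells.

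Other genes of the cell cycle were followed in 6 lists that exclude the 40 members. Over all genes, 17.5% were 2-fold higher and 5.74% lower with bleomycin at 12 months, and 17.9% and 4.46% at 3 months. Of 38 tested spindle, kinetochore and cytokinesis genes, 32 were at least 2-fold higher with bleomycin at 12 months and none lower. Kif2c, a kinesin that shortens microtubules, had 35 UMIs in bleomycin and 0 in PBS, with a lower limit of 3.44 for its ratio. For Ndc80, the kinetochore's microtubule binder, also at 0 in PBS, the lower limit was 3.03. Kif15 was the lowest of the list, 1.37-fold lower with bleomycin (1.05 to 1.77). At 3 months 4 genes of this list were 2-fold higher and 4 lower, and between PBS libraries 27 were lower at 12 months and none higher, against 4.63% and 11.2% of all genes. The 4 that were higher at 3 months are a smaller share than the 17.9% of all genes. Cdca5, which guards sister chromatid cohesion, had the highest 3-month ratio at 3.05 (1.36 to 8.01), and Ska1, a spindle attachment gene, was 2.06-fold lower (1.07 to 3.97).

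Of 26 mitotic kinase activators and chromatin condensation genes, 15 were 2-fold higher at 12 months and none lower, against 17.5% and 5.74% of all genes. Cdkn3, a phosphatase acting on cyclin-dependent kinases, was 19.7-fold higher (8.95 to 54.1), and Cks2, a Cdk1-binding subunit, 6.65-fold (5.43 to 8.22). Cdkn3 was 1.90-fold lower at 3 months (1.15 to 3.11). In this list 1 gene was 2-fold higher and 1 lower at 3 months, no more than the 17.9% and 4.46% of all genes give. H2afv, a histone variant made throughout the cycle, was lower with bleomycin at both ages, 1.43-fold (1.36 to 1.51) and 1.19-fold (1.14 to 1.24).

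Replication machinery outside the 11 members had 19 of 38 genes 2-fold higher at 12 months and 6 of 38 at 3 months, with none lower at either age. The share over all genes was 17.5% at 12 months and 17.9% at 3 months, so the 3-month count is not above it. Uhrf1, which guides DNA methylation behind the fork, was 14.3-fold higher at 12 months (5.45 to 53.0) on 4 PBS UMIs. Cdc7, the kinase that fires origins, had 22 UMIs in bleomycin and 0 in PBS, with a lower limit of 2.10 for its ratio. Pola1, a subunit of the primase complex, differed by less than counting error at 12 months, at a ratio of 0.932 (0.564 to 1.59). Fen1, which trims the lagging strand, had a 3-month ratio of 2.33 (1.59 to 3.53), and Dbf4, the partner of Cdc7, one of 0.749 (0.556 to 1.02). Replication-dependent histones had 11 of 19 higher at 12 months, against 17.5% of all genes. Among them Hist1h2ag had 0 PBS UMIs and a lower limit of 4.69 for its ratio. At 3 months 4 were higher and 1 lower, near the 17.9% and 4.46% of all genes, the latter being Hist2h2ac at 2.55-fold (1.53 to 4.27). Their RNA mostly lacks a poly(A) tail, which this 3′ assay needs, and their copies are alike, so these counts are uncertain.

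G1 cyclins, kinases and E2F or DREAM regulators, which govern the decision to divide, had 9 of 28 genes 2-fold higher and none lower at 12 months, against 17.5% and 5.74% of all genes. At 3 months 3 were higher, a smaller share than the 17.9% of all genes. Ccne1, the cyclin that starts S phase, was 8.90-fold higher at 12 months (3.36 to 33.3) and 3.63-fold at 3 months (1.28 to 14.2), each on 4 PBS UMIs. Foxm1, an activator of mitotic genes, was 5.36-fold higher at 12 months (1.98 to 20.3). Rbl2, a DREAM subunit of resting cells, was lower with bleomycin at both ages, 1.77-fold (1.40 to 2.24) at 3 months and 1.95-fold (1.60 to 2.38) at 12 months. Myc and Ccnd2 were the other 2 lowest at 3 months, 1.95-fold (1.30 to 2.91) and 1.85-fold (1.53 to 2.24) lower. In Sftpc-high cells Ccnd2 was 3.95-fold lower (3.07 to 5.11), the lowest of the list.

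Inhibitors of the cycle formed the last list. Of 16 CDK inhibitors and antiproliferative genes, 7 were 2-fold higher and 1 lower with bleomycin at 12 months, against 17.5% and 5.74% of all genes. At 3 months 4 were higher and 1 lower, close to the 17.9% and 4.46% of all genes. Cdkn2a, the locus of p16 and Arf, was at 0.177, 0.920, 2.49 and 6.23 CPM, with ratios of 14.1 (3.72 to 119) at 3 months on 2 PBS UMIs and 6.77 (3.88 to 12.9) at 12 months. Both bleomycin libraries thus stood above both PBS libraries. Of its bleomycin UMIs, 20 of 58 at 3 months and 114 of 230 at 12 months lay in Sftpc-high cells. There 12-month PBS had 0, and the lower limit of the 12-month ratio was 12.7. Cdkn1a, encoding p21, was 4.14-fold higher at 12 months (3.86 to 4.44), and Cdkn2c, encoding p18, 2.43-fold at 3 months (1.82 to 3.29). Cdkn1c, encoding p57, was 3.37-fold higher at 3 months (2.72 to 4.22) in all cells and was not past 2-fold in Sftpc-high cells. Lower at both ages were Ccng2, a cyclin of resting cells, by 2.17-fold (1.90 to 2.49) and 2.05-fold (1.82 to 2.31), and Cdkn1b, encoding p27, by 1.56-fold (1.32 to 1.85) and 1.77-fold (1.54 to 2.02).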

How the data were processed

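Each of the 4 libraries was a 10x 3′ library from sorted cells, per the labels' protocols. The authors deposited raw UMI counts per gene and cell, and the submitters' processing notes name Cell Ranger without a version, the mouse build mm10 and Seurat 3.2.2. Counts were used as deposited, with no replicate test. Cells needed 500 genes and at most 20% mitochondrial UMIs; genes in a comparison needed 20 UMIs over the 4 libraries, and 2-fold counted as different. Intervals were Poisson for levels, conditional binomial for ratios and Clopper-Pearson for shares, at 95%. Where a gene had 0 UMIs in PBS, either 3 UMIs were set in place of 0 or the lower limit of the interval is given, as stated beside the value. Scrublet, in scanpy 1.11.5, scored doublets, and the top 0.8% per 1000 barcodes (48, 63, 56 and 72) were marked and kept. Python 3.11.15, numpy 2.4.6, scipy 1.17.1 and pandas 2.3.3 were used, with GENCODE M21 for locations. The interval code was tested on simulated data. The members, the named genes (8 mitotic and 6 S-phase members with the most UMIs, the 4 others, and the 3 highest and 3 lowest ratios of each related list, of which some are named) and all lists were chosen with earlier results of these data known. Bub1, Bub1b, Cenpf and a few others were singled out after their values were seen.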

Additional observations from a re-analysis of the deposited data

Results flagged for a closer look

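The summed mitotic members had bleomycin to PBS ratios on opposite sides of 1 at the 2 ages, 0.740 at 3 months and 7.95 at 12 months, and 0.802 and 9.86 in Sftpc-high cells. Each age is 1 library per treatment, so the difference was not tested. The members listed here were chosen because both of their intervals in all cells left out 1 on opposite sides. Their pattern thus follows from that choice, and the share of all genes that meet the rule is not given here. In Sftpc-high cells the 3-month intervals of Birc5 (0.668 to 1.17), Cdca3 (0.451 to 1.06), Top2a (0.499 to 1.10) and Aurkb (0.268 to 1.38) held 1. The 12-month interval of Pcna (0.968 to 1.21) held 1 there as well, and that of Hmgb2 lay below 1.

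Among regulators of mitotic entry and exit the ratios at 3 and 12 months were 0.196 and 55.4 for Ube2c, 0.546 and 75.1 for Cdk1, and 0.623 and 12.2 for Cdca3. Among chromosome passenger, kinase and spindle genes they were 0.713 and 9.96 for Birc5, 0.458 and 20.5 for Aurkb, 0.505 and 9.57 for Aurka, 0.443 and 21.9 for Nusap1, and 0.410 and 11.1 for Cenpe. Top2a, which acts on replicated DNA, had 0.675 and 38.3. Of the genes outside the mitotic set, Hist1h2ap had 0.605 and 8.16, Stmn1 0.606 and 2.25, Hmgb2 0.655 and 1.06, and Pcna 0.867 and 1.12. The 12-month ratios of Pcna and Hmgb2 are close to 1, and that of Hmgb2 was 0.940 in Sftpc-high cells.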

How the results depend on the processing

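No paired analysis was possible because each group is 1 library. The mitotic and S-phase sums kept the sign of their log2 ratio in each comparison and alternative. Other directions turned at 3 months: the mitotic-positive share with bleomycin was above that with PBS as deposited (1.11% and 0.919%) and below it after thinning to 3000 UMIs (0.637% and 0.899%), and the members 2-fold higher and lower were 2 and 5 with all cells but 5 and 2 with Sftpc at 10% or more. Of 355 recomputed values, 277 stayed within their limits and 78 moved. These leave out the shares of all genes past 2-fold, of which 106 stayed and 38 moved. Those shares are not given here, so the turned member counts are not set against them. With all cells, the log2 ratios of the mitotic sum were -0.44 at 3 months, 2.99 at 12 months, -1.96 for 12 against 3 months with PBS and 1.47 with bleomycin, and those of the S-phase sum 0.25, 0.93, -0.29 and 0.40. The cause of a move was not tested, except that where cells or UMIs are removed fewer are counted.

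Member counts at 3 months were 1 higher with median-of-ratios scaling, with every cell weighing the same and with Sftpc at 2% or more, 8 lower after thinning to 3000 UMIs, 1 higher and 8 lower without cells holding the 26 genes of other types, 5 and 2 with Sftpc at 10% or more, 8 and 12 at 1.5-fold, and 0 and 1 at 3-fold. Between bleomycin libraries 12 were higher at 3-fold and 1 was lower after thinning to 3000 UMIs. The share of all genes past the fold also moved at 3 months, in 7 alternatives for higher and 3 for lower. These shares are not given here, so the member counts under each alternative cannot be set against them. Median-of-ratios scaling gave mitotic -0.54 and S-phase 0.14 at 3 months and S-phase 0.82 at 12 months. Scaling without the 20 most abundant genes gave S-phase 0.33 between bleomycin libraries. Thinning to 2000 UMIs gave mitotic -0.57 at 3 months, and 1.56 (mitotic) and 0.52 (S-phase) between bleomycin libraries. Without cells holding the 26 genes the mitotic values were -0.58 at 3 months, -2.43 with PBS and 1.27 with bleomycin, and the S-phase values 0.81 at 12 months and 0.21 with bleomycin. Sftpc at 5% or more gave mitotic -0.32, 3.30, -2.23 and 1.39, and S-phase 0.30 with bleomycin; adding the 26-gene rule gave S-phase 0.80 at 12 months and 0.22 with bleomycin, and mitotic -2.24 and 1.26. Sftpc at 2% or more gave mitotic 3.36 at 12 months and -2.45 with PBS. Sftpc at 10% or more gave mitotic -0.068 at 3 months and 1.05 with bleomycin, and S-phase 0.70 at 12 months and 0.17 with bleomycin. Leaving out mitotic-positive cells gave S-phase 0.14, 0.37 and, with bleomycin, 0.052. Leaving out S-phase-positive cells gave mitotic -0.75, 1.96, -1.67 and 1.04.

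The mitotic-positive share in 3-month bleomycin was 0.64% and 0.57% after thinning to 3000 and 2000 UMIs. In 12-month bleomycin it was 2.77% and 2.17% after thinning, 4.88% without the 26-gene cells, 4.68% with Sftpc at 5% or more as well, 3.8% with Sftpc at 10% or more, and 8.95% and 4.34% with 3 and 6 genes in place of 4. In 12-month PBS it was 0% with Sftpc at 10% or more. The S-phase-positive share in 12-month PBS was 0% without the 26-gene cells and at each Sftpc threshold, and 0.51% with 3 genes. In 3-month PBS it was 0.22% after thinning to 2000, 0.18% with Sftpc at 10% or more and 1.29% with 3 genes. In 3-month bleomycin it was 0.56% and 0.27% after thinning, 5.11% with 3 genes and 0.99% with 6. In 12-month bleomycin it was 1.44% and 0.84% after thinning, 4.64% without the 26-gene cells, 4.63% with both rules, 4.12% with Sftpc at 10% or more, and 11.7% and 3.41% with 3 and 6 genes.

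An alternative set at the start that left out cells with 2 UMIs of any marker of another type was not used, since it left 21, 57, 22 and 9 cells. The 26-gene rule and its combination with Sftpc at 5% or more were chosen after seeing the data. Depth limits the low genes most: 1 to 6 UMIs of Ube2c, Cdk1, Top2a or Plk1 in 12-month PBS leave their ratios wide.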
